A study of Homo sapiens with 18 samples.

Results

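MicroRNA host gene transcripts are the RNAs named for the microRNAs that lie inside their genes, such as MIRLET7A1HG for let-7a-1. They were selected from the count table by the form of the symbol, which starts with MIR and ends with HG, and by a total of at least 50 counts over the 18 libraries, so the summed level was the value that chose them. The table held 36684 rows, of which 69 had a symbol of this form, and 26 of these reached the minimum. The members just inside it were MIR9-1HG with 52 counts and MIR4713HG with 112 counts, and the first one outside was MIR9-2HG with 41 counts. A further 18 rows had between 1 and 41 counts, among them MIR122HG with 13 and MIR155HG with 19, and 25 rows had 0 counts.

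The libraries came from Hep3B, an established human hepatoma cell line, so all groups share the genome of a single tumour line. The 6 groups had 3 libraries each, named by the labels Con (untreated control), Model (steatosis induced with free fatty acids, FFA), FUCO-0.5, FUCO-1 and FUCO-2 (FFA with the marine carotenoid fucoxanthin at 0.5, 1 or 2 μM) and RES (FFA with resmetirom, an agonist of the thyroid hormone receptor β). Every group except Con had received FFA. The FFA concentration, the exposure times and the RES dose of these libraries are not given in the sources used here.

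A primary microRNA is transcribed by RNA polymerase II as part of a longer RNA. The nuclear Drosha and DGCR8 complex cuts the hairpin out, exportin-5 (XPO5) carries it to the cytoplasm, Dicer trims it, and an Argonaute protein loads the mature strand, which finds its targets mainly through its seed. The libraries were made from polyadenylated RNA, so they report the spliced and polyadenylated host RNA that remains in the cell. The mature microRNAs were not measured, and a higher host level need not mean more microRNA, since cutting the hairpin out of an exon destroys that host molecule.

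Of the microRNA hairpins in the RefSeq sequence table used here (GRCh38.p14), 43 lay inside 23 of the 26 members on the same strand. In GENCODE v44, 23 of these hairpins lay in an exon of an annotated host transcript, 19 in an intron and 1 across an exon end. Other microRNA genes that overlap members in the RefSeq annotation are named only: MIR22 (in MIR22HG), MIR4458 (MIR4458HG), MIR3936 (MIR3936HG), MIR125B2 (MIR99AHG), MIR5583-1 (MIR924HG) and MIR181B2 (MIR181A2HG). The count table held a row for each of the 43 hairpins except MIR10526, with almost no counts. Over all 18 libraries 34 of these rows had 0 counts, and the most was 38 counts, at MIR210. How reads shared by a hairpin and its host were counted is not given, so 0 counts need not mean that reads were absent.

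The seed most widely shared among these hairpins was that of let-7, a family that restrains growth and embryonic genes, and it stood in 9 microRNA genes of 6 members. MIRLET7A1HG, at chr9:94166258-94200905 on the plus strand, held MIRLET7A1 (chr9:94175957-94176036), MIRLET7F1 (chr9:94176347-94176433) and MIRLET7D (chr9:94178834-94178920), each within an annotated exon. MIRLET7BHG held MIRLET7A3 and MIRLET7B, MIR100HG held MIRLET7A2, MIR99AHG held MIRLET7C, MIRLET7IHG held MIRLET7I and MIR4500HG held MIR4500. The mature sequences of this group are shown 5′ to 3′ with the seed, bases 2 to 8, in capitals, because MIRLET7A1HG gave the largest response to fucoxanthin among the members.
hsa-let-7a-5p: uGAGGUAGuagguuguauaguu
hsa-let-7f-5p: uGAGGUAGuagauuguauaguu
hsa-let-7d-5p: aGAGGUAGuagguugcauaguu
hsa-let-7b-5p: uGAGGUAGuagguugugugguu
hsa-let-7c-5p: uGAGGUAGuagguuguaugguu
hsa-let-7i-5p: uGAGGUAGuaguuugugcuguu
hsa-miR-4500: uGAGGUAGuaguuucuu

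The other mature sequences shown belong to hosts called in at least 1 comparison and described in detail below, again with the seed in capitals, and none of their seeds matched that of let-7. They are miR-146a (from MIR3142HG, chr5:160468251-160487426), miR-192 and miR-194 (from MIR194-2HG, chr11:64888458-64893449), miR-210 (from MIR210HG, chr11:565657-568457), miR-193b (from MIR193BHG, chr16:14301381-14331062), miR-34a (from MIR34AHG, chr1:9148011-9182338) and miR-17 (from MIR17HG, chr13:91347687-91354577).
hsa-miR-146a-5p: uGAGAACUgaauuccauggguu
hsa-miR-192-5p: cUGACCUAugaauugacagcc
hsa-miR-194-5p: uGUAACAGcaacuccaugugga
hsa-miR-210-3p: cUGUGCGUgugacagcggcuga
hsa-miR-193b-3p: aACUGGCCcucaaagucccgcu
hsa-miR-34a-5p: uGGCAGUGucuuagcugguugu
hsa-miR-17-5p: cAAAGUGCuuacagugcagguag

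Library totals ranged from 16916688 to 23083498 counts. Levels are given as CPM, in which each count is divided by the size of its library, itself adjusted for composition by TMM. These are 3 biological replicates a group by the methods of the study. Fixed markers were read as a check of the cell type. They mark cell types and not a single line, so they could not test the label Hep3B itself. Hepatocyte markers were present, ALB at 7411 to 43307 CPM and others lower, such as TTR (34.7 to 219 CPM) and FGB (36.1 to 159 CPM). Of the fixed markers of other cell types CDH5 had 0, CD3E 1, VWF 2, PTPRC 7, DCN 22 and CD68 28 counts over all libraries. Others were present at low levels, the stromal genes LUM (2.91 to 18.3 CPM), COL1A1 (0.66 to 2.53 CPM) and COL1A2 (0 to 1.24 CPM) and the endothelial gene PECAM1 (0.16 to 1.88 CPM). The summed hepatocyte markers differed between groups, at 69974 to 78362 CPM in Con, 58247 to 58958 in Model, 48815 to 60749 in FUCO-0.5, 52509 to 55424 in FUCO-1, 39628 to 45142 in FUCO-2 and 21601 to 22049 in RES, and their part in the results was not tested. On the first principal component, with 47.0% of the variance, the RES libraries lay between -64.3 and -61.6 and the other libraries between -0.30 and 23.7. Con replicate 1 lay at 21.0 on the second component (12.4% of the variance) and the other Con libraries at 31.8 and 34.6.

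The members were low or moderate in level, with a mean over the 18 libraries between 0.16 CPM (MIR9-1HG) and 22.4 CPM (MIR600HG). The 5 highest were MIR600HG, MIR22HG (14.3 CPM), MIR4435-2HG (10.1 CPM), MIR99AHG (9.54 CPM) and MIRLET7A1HG (8.30 CPM), and 7 members stayed under a mean of 1 CPM. Longer RNAs collect more reads, so levels were also set between genes per kilobase of the exons annotated in GENCODE v44. On that scale MIR22HG was highest (4.61 CPM per kb), ahead of MIR600HG (3.75), MIR3142HG (3.01) and MIRLET7A1HG (1.78), whereas MIR99AHG, with the longest annotated exon length of the members (58906 bases), came to 0.16 and MIR4435-2HG to 0.29. The reads were counted on another annotation, so these lengths may not match the counted features. The exons of MIR17HG, for example, came to 12894 bases in GENCODE v44, against a RefSeq span of 6891. The summed level of all members was 121 ± 0.68 CPM in Con (SD, n = 3), 129 ± 6.2 in Model, 118 ± 7.9 in FUCO-0.5, 121 ± 1.3 in FUCO-1, 128 ± 8.1 in FUCO-2 and 112 ± 3.6 in RES.

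**Figure D1:**
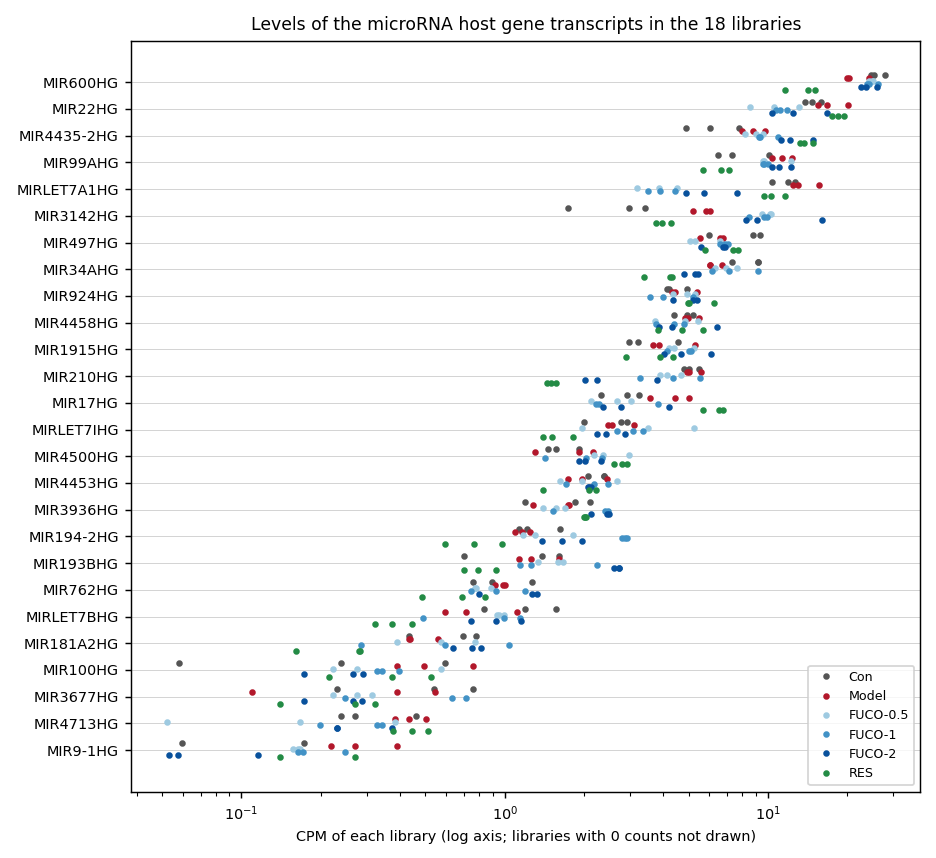
CPM of each of the 26 members in each library on a log axis, 1 point per library, coloured by group, with the member of the highest mean at the top. MIRLET7A1HG shows the 9 fucoxanthin libraries (3.18 to 7.64 CPM) apart from the other 9, and MIR210HG and MIR600HG show the RES libraries at the low end.

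Of the 26 members, 24 passed the filter on low counts and were tested with edgeR's quasi-likelihood test, with Benjamini-Hochberg adjustment over all 14557 genes tested. MIR4713HG and MIR9-1HG did not pass it. A member is called below where its adjusted p was under 0.05, and counted as a DEG where the log2 fold change was also beyond 1 in size, the rule of the study. Over the 6 comparisons 14 members were called at least once and 10 tested members in none. The share of all tested genes called at least once was not counted, so the 14 were not read against a background. RES against the model alone called 49.4% of all tested genes, and 2 μM against the model 20.5%. The comparisons with Model share its 3 libraries, so their values are not independent of each other.

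Against Con, the model had 4 of 26 members called (3 higher, 1 lower, 1 DEG), where 17.6% of all tested genes were called, 8.43% higher and 9.12% lower, with 1.95% DEGs. At 0.5 μM fucoxanthin against the model it was 3 members (1 higher, 2 lower, 1 DEG), where the background was 1.45% called, 0.289% higher, 1.16% lower and 0.268% DEGs. With 1 μM it was 4 members (2 higher, 2 lower, 2 DEGs) against 3.21% called, 0.893% higher, 2.32% lower and 0.495% DEGs. With 2 μM it was 6 members (3 higher, 3 lower, 1 DEG) against 20.5% called, 10.8% higher, 9.71% lower and 1.60% DEGs. RES gave 10 members (3 higher, 7 lower, 2 DEGs) against 49.4% called, 24.4% higher, 25.1% lower and 9.91% DEGs. Between 2 and 1 μM it was 4 members (1 higher, 3 lower, 0 DEGs) against 6.30% called, 4.07% higher, 2.23% lower and 0.577% DEGs. As shares of the 26 members these counts were 15.4%, 11.5%, 15.4%, 23.1%, 38.5% and 15.4%, in that order. The median log2 fold change of the 24 tested members was 0.08, 0.02, 0.12, 0.06, -0.49 and 0.12, beside medians between -0.00 and 0.01 over all tested genes. The share for the model against Con was close to its background, and those at 2 μM and with RES were near or under theirs. Those at 0.5 μM, at 1 μM and between 2 and 1 μM lay above theirs, on 3 or 4 members each, and this was not tested. The shares of members include the 2 untested ones, while the background covers tested genes only.

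**Figure D2:**
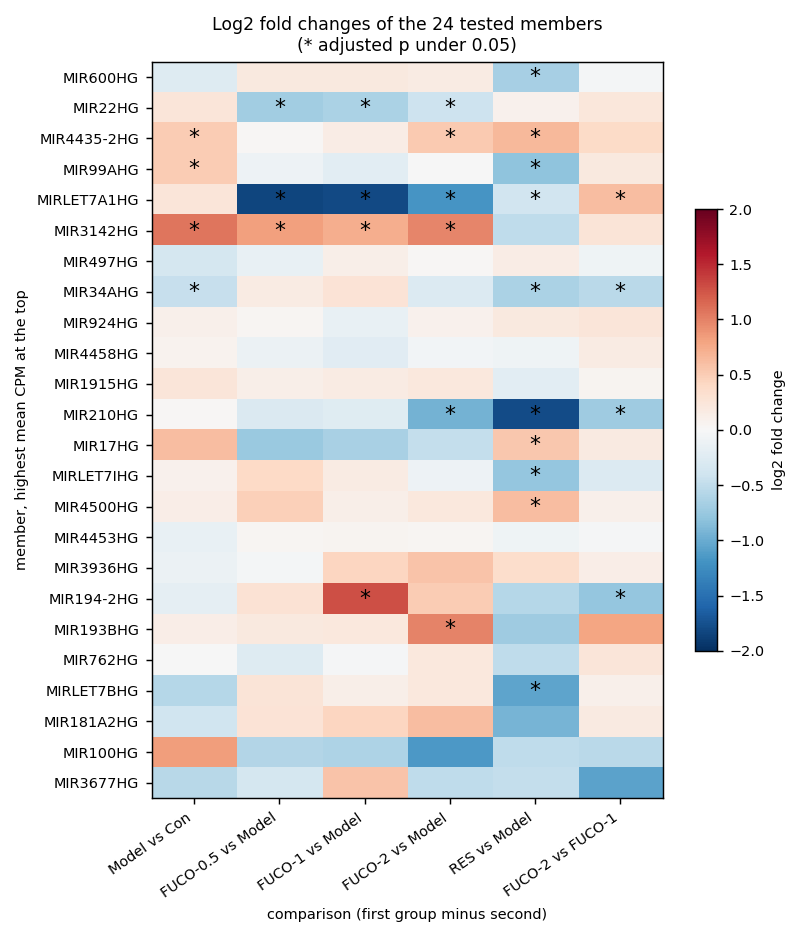
Log2 fold changes of the 24 tested members (rows, highest mean CPM at the top) in the 6 comparisons (columns, first group minus second), from blue (lower) to red (higher), with a star where the adjusted p was under 0.05. MIRLET7A1HG is blue in all 3 fucoxanthin columns, MIR3142HG is red from the model onwards except with RES, and the RES column holds 10 stars.

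The first question was what FFA did to the host transcripts. MIR3142HG, the host of miR-146a, a brake on NF-κB signalling, rose past the fold of a DEG, MIR99AHG and MIR4435-2HG rose less and MIR34AHG fell. MIR3142HG stood at 1.73, 3.40 and 2.97 CPM in the Con libraries and at 5.21, 5.84 and 6.01 CPM in the Model libraries. The groups did not overlap, and the model was 2.10 times the control level (log2 fold change 1.07 ± 0.23 SE, adjusted p = 0.00203). The call held in all 24 alternative fits, at log2 fold changes from 0.84 to 1.26.

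MIR99AHG, the host of miR-99a and let-7c, stood at 10.1, 6.45 and 7.30 CPM in Con and at 10.4, 12.3 and 11.3 CPM in Model. It rose by 0.51 ± 0.14 on the log2 scale (adjusted p = 0.0138), with Con replicate 1 just below the lowest Model library. MIR4435-2HG, a long non-coding RNA also known as Morrbid for its role in myeloid cell survival, stood at 7.74, 6.03 and 4.87 CPM in Con and at 8.77, 9.79 and 7.96 CPM in Model. It rose by 0.51 ± 0.15 (adjusted p = 0.0197). Both groups were apart in every library, but both calls were lost without Con replicate 2, Con replicate 3 or Model replicate 2, at 0.39 to 0.45 for MIR99AHG (adjusted p 0.0705 to 0.105) and at 0.36 to 0.49 for MIR4435-2HG (adjusted p up to 0.152), which also lost its call with only the 2 groups in the fit (0.51, adjusted p = 0.0511).

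MIR34AHG, the host of the p53-responsive miR-34a, stood at 7.28, 9.20 and 9.14 CPM in Con and at 6.69, 6.01 and 6.01 CPM in Model. It fell by 0.45 ± 0.15 on the log2 scale (adjusted p = 0.0340) without overlap. The call was lost without Con replicate 2, Con replicate 3 or any 1 of the Model libraries, at -0.51 to -0.40 (adjusted p 0.0514 to 0.129). Con replicate 1, which lay apart on the second component, lowered the number of calls: without it 6 members were called, MIR17HG (log2 fold change 0.72, adjusted p = 0.0421) and MIR497HG (-0.53, adjusted p = 0.0136) among them.

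The next question was which host transcripts fucoxanthin moved in FFA-treated cells. MIRLET7A1HG fell at every dose and gave the largest change of any member in the 3 comparisons of a dose with the model. It stood at 10.3, 12.7 and 11.9 CPM in Con, at 13.1, 15.6 and 12.5 CPM in Model and at 11.6, 10.3 and 9.70 CPM in RES. The fucoxanthin libraries stood at 4.50, 3.87 and 3.18 CPM with 0.5 μM, at 3.52, 4.42 and 3.88 CPM with 1 μM and at 4.90, 5.70 and 7.64 CPM with 2 μM. All 9 of these libraries lay below all libraries of the other groups.

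Against the model, MIRLET7A1HG was at 0.281 times its level with 0.5 μM (log2 fold change -1.83 ± 0.16, adjusted p = 3.8e-08), 0.287 times with 1 μM (-1.80 ± 0.16, adjusted p = 2.18e-08) and 0.442 times with 2 μM (-1.18 ± 0.15, adjusted p = 5.76e-06). Model itself did not differ detectably from Con (13.7 ± 1.67 and 11.7 ± 1.20 CPM, SD, n = 3), and the doses also lay below the control, by 1.59, 1.56 and 0.94 on the log2 scale (adjusted p = 1.07e-07, 1.43e-07 and 5.8e-05). The calls against the model held in all 24 alternative fits at each dose, with log2 fold changes from -1.96 to -1.05 over the doses. RES lowered the transcript less, by 0.38 ± 0.14 on the log2 scale (adjusted p = 0.0253), a call lost without Model replicate 2, RES replicate 2 or RES replicate 3 (-0.36 to -0.28, adjusted p 0.0690 to 0.151). The annotation also places LINC02603 over MIRLET7A1HG, but its row held only 30 counts in all.

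MIR22HG, the host of miR-22 and an RNA known to respond to cell stress, was the other member called lower at all 3 doses. It stood at 16.7, 20.1 and 15.5 CPM in Model and at 16.0, 14.7 and 13.8 CPM in Con. The doses gave 10.5, 13.1 and 8.54 CPM with 0.5 μM, 11.1, 11.8 and 10.7 CPM with 1 μM and 12.4, 10.3 and 16.8 CPM with 2 μM, and RES gave 17.5, 19.4 and 18.5 CPM. The libraries of the 2 lower doses lay below all Model libraries, while 1 library at 2 μM lay among them.

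On the log2 scale MIR22HG fell by 0.70 ± 0.15 (adjusted p = 0.0113) with 0.5 μM, by 0.64 ± 0.15 (adjusted p = 0.0139) with 1 μM and by 0.41 ± 0.15 (adjusted p = 0.0491) with 2 μM. The first call was lost without Model replicate 2, FUCO-0.5 replicate 1 or FUCO-0.5 replicate 3 (-0.68 to -0.56, adjusted p 0.0648 to 0.121), and the second without Model replicate 2, FUCO-1 replicate 1 or FUCO-1 replicate 3 (-0.63 to -0.52, adjusted p 0.0543 to 0.119). The call at 2 μM was on the edge of the threshold and held in only 9 of 24 alternative fits. It was lost without any 1 of 13 libraries, with the smallest values without Model replicate 2 (-0.29) and FUCO-2 replicate 2 (-0.26, adjusted p = 0.269). Without FUCO-2 replicate 3, the library among those of the model, the value was -0.62 (adjusted p = 0.00434). Of the genes beside MIR22HG, WDR81, which starts 313 bases away, gave -0.10, 0.04 and -0.02 at the 3 doses and TLCD2, at 1127 bases, gave -0.08, 0.25 and -0.04, none of them called.

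MIR3142HG rose with fucoxanthin above the level that FFA had already raised. Its libraries stood at 9.49, 10.3 and 10.2 CPM with 0.5 μM, at 9.71, 9.94 and 8.45 CPM with 1 μM and at 8.29, 16.0 and 9.08 CPM with 2 μM, all above the highest Model library at 6.01 CPM. FUCO-2 replicate 2 was well above the other libraries of its group. RES gave 4.28, 3.77 and 3.97 CPM, between Con and Model.

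Relative to the model MIR3142HG rose by 0.81 ± 0.19 on the log2 scale with 0.5 μM (adjusted p = 0.0280), by 0.72 ± 0.20 with 1 μM (adjusted p = 0.0395) and by 0.97 ± 0.19 with 2 μM (adjusted p = 8.46e-04). Relative to Con the same doses stood at 3.69, 3.46 and 4.13 times the level (adjusted p = 8.76e-07, 2.36e-06 and 1.68e-07), and RES at 1.49 times (adjusted p = 0.0438). Without FUCO-2 replicate 2 the rise at 2 μM was 0.61 and remained called. The calls at the lower doses were near the threshold: leaving out any 1 of the Model libraries or of the libraries of the dose ended them, at 0.75 to 0.86 for 0.5 μM (adjusted p 0.0710 to 0.149) and at 0.66 to 0.79 for 1 μM (adjusted p up to 0.149), and the call at 1 μM also ended without RES replicate 2 (0.72, adjusted p = 0.0506). The difference between RES and the model, -0.50, missed the threshold (adjusted p = 0.0526) and was called in 9 of 24 alternative fits, among them DESeq2 (adjusted p = 0.0499), no filter on low counts (0.00843) and only the 2 groups in the fit (0.00368).

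MIR194-2HG, the host of miR-192 and miR-194, a pair abundant in liver and gut, was higher at 1 μM. Its libraries stood at 1.21, 1.13 and 1.62 CPM in Con, 1.10, 1.17 and 1.25 CPM in Model and 1.81, 1.31 and 1.17 CPM with 0.5 μM. With 1 μM they stood at 2.92, 2.79 and 2.86 CPM, with 2 μM at 1.38, 1.65 and 1.97 CPM and with RES at 0.77, 0.59 and 0.98 CPM. The 1 μM libraries lay above all 15 others, and their counts (59, 51 and 50) were the largest for this transcript.

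At 1 μM MIR194-2HG was 2.43 times the model level (log2 fold change 1.28 ± 0.22, adjusted p = 7.9e-04) and 2.14 times the control level (1.10 ± 0.22, adjusted p = 8.24e-04), and the call against the model held in all 24 alternative fits. The other doses were not called against the model (0.29 with 0.5 μM, 0.51 with 2 μM). Tested directly, 2 μM lay below 1 μM by 0.78 ± 0.21 on the log2 scale (adjusted p = 0.0262), whereas the difference of 0.99 ± 0.21 between 1 and 0.5 μM, a contrast added after the levels had been seen, was not called (adjusted p = 0.104). RES stood below Con by 0.75 (adjusted p = 0.0169), and its difference from the model of -0.57 was not called, except without RES replicate 3 (-0.76, adjusted p = 0.0470). ATG2A, an autophagy gene 1097 bases from MIR194-2HG, gave 0.04 at 1 μM (adjusted p = 0.92).

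At 2 μM the calls included MIR210HG, MIR193BHG and MIR4435-2HG, which were called at neither lower dose. Tested directly against 1 μM, MIR210HG was called lower (-0.71, adjusted p = 0.0381). MIR193BHG (0.80, adjusted p = 0.0577) and MIR4435-2HG (0.38, adjusted p = 0.103) were not called in that test. The summed hepatocyte markers were also lower at 2 μM (39628 to 45142 CPM, against at least 58247 in Model), and their part was not tested. MIR210HG, the host of the hypoxia-induced miR-210, stood at 4.80, 5.02 and 5.46 CPM in Con and at 5.59, 5.01 and 4.93 CPM in Model. The doses gave 4.66, 4.13 and 3.91 CPM, then 4.36, 3.28 and 5.54 CPM, then 3.80, 2.24 and 2.02 CPM, and RES gave 1.49, 1.56 and 1.45 CPM. The 2 lower doses were not called, and 2 μM and RES lay below all Con and Model libraries.

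For MIR210HG the fall from the model was 0.95 ± 0.20 on the log2 scale with 2 μM (adjusted p = 0.00149) and 1.78 ± 0.21 with RES (adjusted p = 1.98e-07), and both held in all 24 alternative fits. RASSF7, 1632 bases away, gave -0.12 with 2 μM, not called, and fell by 0.56 with RES (adjusted p = 3.1e-04). LMNTD2, 4919 bases away, gave 0.06 and -0.22, neither called.

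MIR193BHG, the host of miR-193b and miR-365a, known from brown fat development, stood at 1.39, 1.61 and 0.70 CPM in Con, 1.26, 1.61 and 1.14 CPM in Model and 0.93, 0.70 and 0.79 CPM in RES. The doses gave 1.59, 1.67 and 1.34 CPM, then 1.14, 2.24 and 1.26 CPM, then 2.59, 2.71 and 2.72 CPM. Only the 2 μM libraries lay above all others, at 2.00 times the model level (log2 fold change 1.00 ± 0.26, adjusted p = 0.00735). This value lay just under the fold required of a DEG. MIR4435-2HG stood at 8.18, 9.05 and 9.60 CPM, then 9.26, 10.9 and 9.31 CPM, then 11.2, 14.9 and 12.1 CPM over the doses. It rose by 0.53 ± 0.14 with 2 μM (adjusted p = 0.00819), a call lost without Model replicate 3 (0.46) or FUCO-2 replicate 2 (0.40, adjusted p 0.0537 and 0.0717).

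**Figure D3:**
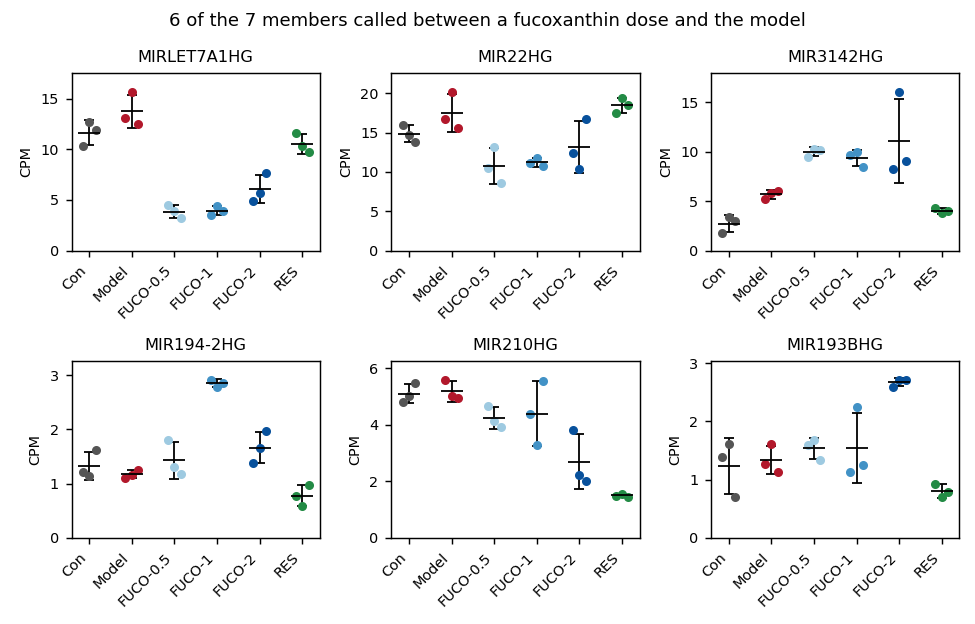
CPM of 6 members by group, with 1 point per library and a bar for the mean and SD of the 3 libraries, each axis from 0. MIRLET7A1HG is at 3.85, 3.94 and 6.08 CPM in the 3 doses against 13.7 CPM in Model, MIR194-2HG peaks at 2.85 CPM with 1 μM, and MIR210HG is lowest in RES at 1.50 CPM.

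The comparison of 2 with 1 μM asked whether the higher dose acted differently. MIRLET7A1HG was higher at 2 μM by 0.62 ± 0.17 on the log2 scale (adjusted p = 0.0290), so its fall was smaller there. MIR34AHG and MIR210HG were lower, by 0.54 ± 0.15 (adjusted p = 0.0343) and by 0.71 ± 0.20 (adjusted p = 0.0381). Each of these 3 calls, and that of MIR194-2HG described above, was lost when FUCO-1 replicate 1, FUCO-1 replicate 3 or FUCO-2 replicate 2 was left out. MIRLET7A1HG, MIR34AHG and MIR210HG also lost theirs without FUCO-2 replicate 3, and with only the 2 groups in the fit, and MIR194-2HG without FUCO-2 replicate 1 and with DESeq2. The values in these fits were 0.43 to 0.67 for MIRLET7A1HG, -0.57 to -0.36 for MIR34AHG, -0.71 to -0.51 for MIR210HG and -0.78 to -0.66 for MIR194-2HG, with adjusted p between 0.0504 and 0.219. Between 1 and 0.5 μM the values were 0.03 for MIRLET7A1HG, 0.06 for MIR22HG and -0.09 for MIR3142HG, none called.

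RES served as the reference drug. Of the 26 members, 7 were called lower with it and 3 higher. Of all tested genes 25.1% were called lower and 24.4% higher, so about as many were called as not. The split by direction was not tested. The summed hepatocyte markers were also lowest with RES (21601 to 22049 CPM), and their part in these results was not tested. MIR600HG had the highest mean CPM of the members. It stood at 25.2, 24.5 and 27.7 CPM in Con, 24.3, 19.9 and 20.4 CPM in Model and 14.2, 11.6 and 15.1 CPM in RES. The fucoxanthin libraries lay between 22.6 and 26.2 CPM. RES was below every other library, and the fall from the model was 0.66 ± 0.10 on the log2 scale (adjusted p = 9.52e-06). STRBP, whose annotated span overlaps MIR600HG, went the other way by 0.21 (adjusted p = 0.042), and RABGAP1, 4628 bases away, gave -0.01. Whether the counting used strand, and how it treated reads shared by overlapping genes, is not given in the sources used here. Reads of overlapping genes, on the same or on opposite strands, therefore cannot be assigned with certainty.

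MIR99AHG stood at 6.66, 5.65 and 7.09 CPM with RES and at 9.60, 12.3 and 9.66 CPM, 10.1, 9.61 and 9.65 CPM, and 11.1, 12.2 and 10.4 CPM with the 3 doses. RES lowered it by 0.80 ± 0.14 on the log2 scale from the model (adjusted p = 5.29e-05), and it then did not differ detectably from Con (-0.29, adjusted p = 0.0997). MIR34AHG stood at 4.32, 3.39 and 4.25 CPM with RES and at 7.63, 6.95 and 6.31 CPM, 9.16, 6.12 and 7.14 CPM, and 5.41, 5.27 and 4.80 CPM with the 3 doses. Its fall with RES was 0.64 ± 0.16 from the model (adjusted p = 0.00159) and 1.09 ± 0.15 from Con (adjusted p = 1.39e-06). LNCTAM34A, which overlaps MIR34AHG, had 103 counts in all and was not tested. MIR4435-2HG rose by 0.66 ± 0.14 (adjusted p = 2.99e-04), to 13.7, 13.3 and 14.8 CPM, and stood at 2.25 times its control level. The calls of MIR600HG, MIR99AHG, MIR34AHG and MIR4435-2HG with RES held in all 24 alternative fits.

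MIR17HG, the host of the miR-17-92 cluster, which is known to promote proliferation and to respond to MYC, stood at 3.24, 2.33 and 2.92 CPM in Con, 4.44, 5.01 and 3.57 CPM in Model and 6.54, 6.73 and 5.69 CPM in RES. The doses gave 3.02, 2.67 and 2.12 CPM, then 2.28, 3.82 and 2.23 CPM, then 2.76, 4.21 and 2.37 CPM. RES raised it by 0.54 ± 0.19 on the log2 scale from the model (adjusted p = 0.0238), to 2.23 times the control level (adjusted p = 4.54e-05). The call against the model was lost without Model replicate 1, Model replicate 3, RES replicate 1 or RES replicate 2 (0.42 to 0.56, adjusted p 0.0516 to 0.122). The model stood above Con by 0.61 and the lower doses below the model by 0.73 and 0.64, none of them called in the main test (adjusted p = 0.0572, 0.122 and 0.112). These 3 differences were called with no filter on low counts and with only the compared groups in the fit, and in 8, 2 and 3 of the 24 alternative fits in all.

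MIR4500HG, the host of a microRNA with the let-7 seed, stood at 1.56, 1.91 and 1.46 CPM in Con, 1.92, 2.17 and 1.30 CPM in Model and 2.79, 2.91 and 2.61 CPM in RES. With the doses it stood at 2.36, 2.98 and 2.18 CPM, at 2.03, 2.35 and 1.43 CPM and at 2.02, 1.92 and 2.31 CPM. RES raised it by 0.62 ± 0.21 (adjusted p = 0.0168), a call lost without Model replicate 3 (0.44, adjusted p = 0.117). SLITRK5, 408 bases away, gave 0.18, not called. MIRLET7IHG stood at 2.77, 2.93 and 2.00 CPM in Con, 2.47, 2.56 and 3.09 CPM in Model and 1.82, 1.51 and 1.40 CPM in RES. Its libraries with the doses stood at 1.98, 5.23 and 3.52 CPM, at 3.37, 2.68 and 3.08 CPM and at 2.25, 2.87 and 2.43 CPM, with the widest spread at 0.5 μM. The fall with RES was 0.77 ± 0.27 (adjusted p = 0.0189), lost without Model replicate 3 (-0.66, adjusted p = 0.0796) or RES replicate 3 (-0.69, adjusted p = 0.0663). LINC01465, which overlaps MIRLET7IHG, rose by 0.82 (adjusted p = 0.0061), and MON2, 2267 bases away, gave 0.06.

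**Figure D4:**
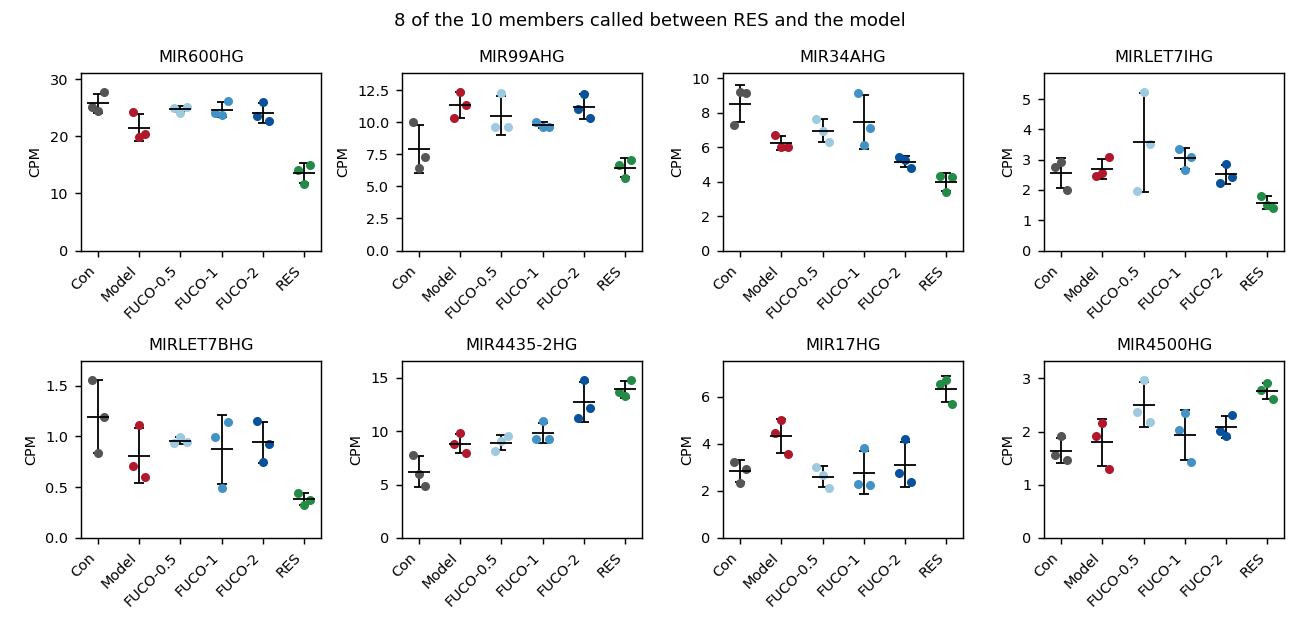
CPM of 8 members by group, drawn as in the plot of the fucoxanthin members, each axis from 0. The RES mean is the lowest for MIR600HG (13.6 CPM), MIR99AHG (6.47), MIR34AHG (3.99), MIRLET7IHG (1.57) and MIRLET7BHG (0.38) and the highest for MIR4435-2HG (13.9), MIR17HG (6.32) and MIR4500HG (2.77).

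The 6 hosts that hold a let-7 seed, among the hairpins whose sequences were read, gave calls in both directions with RES. No sequence was available here for MIR4458, MIR22 or MIR3936, so the seeds of these microRNAs were not read. MIRLET7A1HG was the only one of the 6 hosts called with fucoxanthin at any dose. The other 5 gave log2 fold changes from the model between -1.15 (MIR100HG with 2 μM) and 0.48 (MIR4500HG with 0.5 μM). With RES, MIRLET7A1HG, MIRLET7BHG, MIRLET7IHG and MIR99AHG fell, MIR4500HG rose and MIR100HG, at 0.36 CPM on average, was not called (-0.51, adjusted p = 0.385). MIRLET7BHG had a mean under 1 CPM, with 11, 6 and 8 counts in the RES libraries and 13, 20 and 11 in Model. Its fall of 1.05 ± 0.38 (adjusted p = 0.0245) was lost with DESeq2 and without Model replicate 2, RES replicate 2 or RES replicate 3 (-1.07 to -0.75, adjusted p 0.0513 to 0.162). The lowering by fucoxanthin was not tested for a difference between these hosts.

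**Figure D5:**
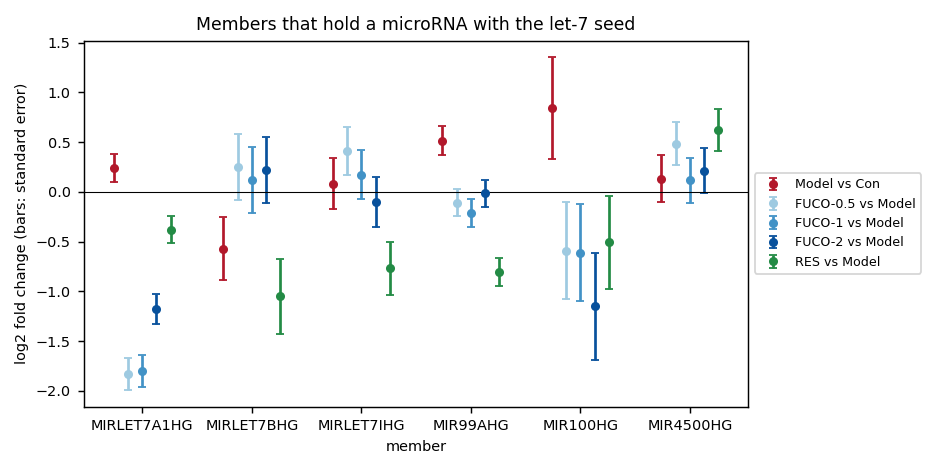
Log2 fold change with its standard error in 5 comparisons, for the 6 members with a let-7 seed among the hairpins whose sequences were read. The 3 fucoxanthin points of MIRLET7A1HG lie between -1.83 and -1.18, while those of the other 5 members lie between -1.15 and 0.48, with the widest errors for MIR100HG.

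The 10 tested members called in no comparison were MIR497HG, MIR924HG, MIR4458HG, MIR1915HG, MIR4453HG, MIR3936HG, MIR762HG, MIR181A2HG, MIR100HG and MIR3677HG. MIR497HG, the host of miR-195 and miR-497, ranged from 5.08 to 9.30 CPM with a median of 6.67 CPM, MIR924HG from 3.57 to 6.25 CPM, MIR4458HG from 3.74 to 6.39 CPM and MIR1915HG from 2.89 to 6.11 CPM. MIR4453HG ranged from 1.40 to 2.67 CPM and MIR3936HG from 1.19 to 2.49 CPM. MIR762HG, MIR181A2HG, MIR100HG and MIR3677HG lay at or under 1.33 CPM in every library. Their log2 fold changes ran from -1.15 to 0.84, and the smallest adjusted p among them was 0.0794, for MIR3936HG with 2 μM. Against Con, MIR181A2HG stood lower with RES by 1.33 (adjusted p = 0.0145) and MIR497HG lower with 0.5 μM by 0.50 (adjusted p = 0.0261). MIR100HG and MIR3677HG had between 1 and 14 counts a library. Changes may have been missed at that depth, which was not tested. The untested MIR4713HG had 1 to 11 counts a library, and MIR9-1HG had a count in 16 of 18 libraries and at most 7.

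The RefSeq promoter windows, 250 bases before to 50 after the start, covered 24 members. They were searched on both strands for 4 sets of letters. TGANTCA, a form bound by AP-1, stood in 7.71% of all 35116 windows and in that of MIR4435-2HG, 40 bases after the start. TGACGTCA, bound by CREB and ATF factors, stood in 1.85% of windows and in that of MIR9-1HG, and GCGTGGGCG, bound by EGR factors, in 0.79% of windows and in that of MIR34AHG. CACGTG, an E-box, stood in 7.26% of windows and in none of these members. The windows of the other 21 members, MIRLET7A1HG among them, held none of the 4 sets.

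Fixed lists of related genes were counted in the same fits. Of 29 genes of microRNA processing and silencing, 28 were tested, and 1, 0, 1, 5 and 12 were called in the model against Con, the 3 doses in ascending order and RES, with 0 DEGs in each and 6 of the 12 higher with RES. These were 3.45%, 0%, 3.45%, 17.2% and 41.4% of the list, where 17.6%, 1.45%, 3.21%, 20.5% and 49.4% of all tested genes were called, so the list was near or under the background in each. For 0.5 μM, where edgeR called 0, 2 genes had an unadjusted p under 0.05. XPO5 rose by 0.53 with 2 μM (adjusted p = 1.1e-04) and by 0.66 with RES (adjusted p = 7.6e-07). AGO4, an Argonaute, fell by 0.32 with 2 μM (adjusted p = 0.021) and by 0.78 with RES (adjusted p = 5.4e-07). AGO2 rose by 0.32 with 2 μM (adjusted p = 0.012) and fell by 0.24 with RES (adjusted p = 0.028). AGO1 and AGO3 were called in neither comparison. With RES, DGCR8 fell by 0.47 (adjusted p = 4.8e-06), and DIS3L2, a nuclease that degrades uridylated let-7 precursors, rose by 0.36 (adjusted p = 0.0017). The medians of this list lay between -0.04 and 0.02 on the log2 scale, where those of all tested genes lay between -0.00 and 0.01.

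Protein-coding hosts of intronic microRNAs gave 13, 0, 1, 6 and 21 calls among 36 tested of 40 listed, or 32.5%, 0%, 2.5%, 15% and 52.5% of the list, where 17.6%, 1.45%, 3.21%, 20.5% and 49.4% of all tested genes were called. Of the calls, 10 of 13 were lower in the model and 15 of 21 lower with RES. With 0.5 μM, where edgeR called 0, 7 genes had an unadjusted p under 0.05. With RES, IGF2, a fetal growth factor and host of miR-483, fell by 3.19 (adjusted p = 1.9e-15), SREBF1, the host of miR-33b and a regulator of lipid synthesis, by 1.15 (adjusted p = 8.7e-09), PANK1, the host of miR-107, by 1.08 (adjusted p = 4.9e-10) and EVL by 0.78 (adjusted p = 3.5e-07). Among 6 tested of 8 non-coding hosts with other symbols 0, 1, 0, 2 and 4 were called by edgeR, and where 0 were called, in the model and with 1 μM, 1 and 2 had an unadjusted p under 0.05. With 6 genes tested these counts were not read against the background. H19, the host of miR-675, fell by 0.31 with 2 μM (adjusted p = 0.036) and by 2.26 with RES (adjusted p = 1.8e-14), NEAT1, the scaffold of paraspeckles, fell by 0.49 with 0.5 μM (adjusted p = 0.029) and rose by 0.92 with RES (adjusted p = 6.8e-07), PVT1 rose by 1.13 with 2 μM (adjusted p = 1.6e-04), and FTX fell by 0.55 with RES (adjusted p = 4.4e-04).

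Described targets of let-7, of which all 16 listed were tested, gave 2, 1, 2, 4 and 11 calls in the same order, or 12.5%, 6.25%, 12.5%, 25.0% and 68.8% of the list, where 17.6%, 1.45%, 3.21%, 20.5% and 49.4% of all tested genes were called. Of all genes, 10.8% were called higher at 2 μM and 25.1% lower with RES. At 0.5 μM the call was a fall (MYC), at 1 μM there was 1 in each direction, at 2 μM all 4 rose and with RES 9 of 11 fell. MYC rose by 0.60 in the model (adjusted p = 6.8e-04) and fell by 0.81 with 0.5 μM (adjusted p = 1.1e-04) and by 0.77 with 1 μM (adjusted p = 1.7e-04). CCND1 rose by 0.34 with 2 μM (adjusted p = 0.0093) and fell by 0.73 with RES (adjusted p = 5.8e-07), and ARID3A and IGF2BP1 fell by 0.91 and 0.55 with RES (adjusted p = 3.4e-08 and 1.6e-07). The list medians were 0.06, 0.06, 0.05 and -0.27 with the 3 doses and RES.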

How the data were processed

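RNA-seq counts were analysed for 18 poly(A) libraries of Hep3B cells. The authors' deposited table holds raw read counts per gene, made by trimming with fastp, aligning to GRCh38.p14 with STAR and counting with featureCounts. Strand and multimapping settings are not given in the sources used here, and the symbols follow NCBI naming although GENCODE is the annotation named. The labels number the libraries 1 to 3 in each group, and the study calls them biological replicates.

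Counts were filtered (filterByExpr), scaled by TMM and fitted with edgeR 4.0.16 in R 4.3.3 (quasi-likelihood, 1 term per group, all 18 libraries). The 6 comparisons were tested, adjusted over 14557 genes, and the standard error comes from the quasi F statistic. Alternatives were DESeq2 1.42.0, RLE factors, no filter, only the compared groups, a prior count of 2, the DEG threshold, a replicate block and leaving out each library. The contrast of 1 with 0.5 μM and the account without Con replicate 1 were added after seeing the data. The edgeR fit was run on simulated counts with the same dispersion for all genes and changes set only in RES. The other steps were not tested in this way. The members, lists and letters were chosen with earlier results of these data known. Every member called in at least 1 comparison is named, with each library's value at a mean of 1 CPM or more. Also named are the 5 members with the highest mean CPM, genes within 5 kb of a described member, and up to 4 called genes per list by smallest p. AGO1, AGO2 and AGO3 are named beside AGO4. Sequences are from RefSeq (GRCh38.p14). A marker of the fixed list is not reported here.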

Additional observations from a re-analysis of the deposited data

Results flagged for a closer look

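The effect of fucoxanthin was called as different between 2 and 1 μM, by a direct test in the same fit, for 4 of 26 members. Of all tested genes 6.30% were called in this comparison. Each of the 4 calls held in 19 of 24 alternative fits. All of them were lost without FUCO-1 replicate 1, FUCO-1 replicate 3 or FUCO-2 replicate 2. On the log2 scale the difference of 2 minus 1 μM was 0.62 for MIRLET7A1HG, -0.54 for MIR34AHG, -0.71 for MIR210HG and -0.78 for MIR194-2HG. The 2 doses were compared with the same Model libraries, so each value is also the difference between their changes from the model. All 3 libraries at 2 μM lay above (MIRLET7A1HG) or below (MIR34AHG and MIR194-2HG) the 3 at 1 μM, while those of MIR210HG overlapped.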

How the results depend on the processing

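Of 31 calls of a member in a comparison, 13 held in all 24 alternative fits, 18 were lost in at least 1 and 0 reversed. These fits were not equally able to end a call. The prior count of 2 acts on the fold change and not on the p-value. Leaving out a library outside the compared groups alters only the estimates shared by all groups. Leaving out single libraries moved the number of members called to between 1 and 6 for the model against Con (4 in the main test), 1 and 3 for 0.5 μM (3), 2 and 4 for 1 μM (4), 5 and 6 for 2 μM (6), 7 and 11 for RES (10) and 0 and 5 for 2 against 1 μM (4). Requiring a log2 fold change over 1 left 1, 1, 2, 1, 2 and 0 members in these comparisons. Fitting only the compared groups left 1 member for 2 against 1 μM. The replicate block gave 2617, 235, 510, 3040, 7275 and 1012 genes called over all genes, against 2555, 211, 467, 2990, 7194 and 917 without it, with 5, 3, 4, 5, 12 and 5 members called. It ended the call of MIR22HG at 2 μM (-0.40) and added MIR17HG for the model, MIR3142HG and MIR193BHG for RES and MIR193BHG for 2 against 1 μM. Same-numbered libraries correlated between -0.16 and 0.16 in their deviations, and each library correlated best with its own number only for 2 μM against the model, so the numbers were not read as pairs. Members under about 1 CPM had few counts, so changes below 2-fold may have been missed there, which was not tested.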
